A study of Mus musculus with 9 samples.

Results

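The genes described here are 9 genes of lymphocyte precursors and of the thymus, Igll1, Vpreb1, Vpreb3, Cd79a, Rag1, Rag2, Dntt, Ptcra and Prss16, among 28104 gene names on the array. Every non-control probe whose gene name was one of these was used, 16 probes in all. Igll1 was chosen because it had been seen to be higher in p63-/- esophagus on these same arrays, so its values are described without a test. The other 8 genes were chosen by their function, to ask whether Igll1 goes with genes of B-cell precursors or with genes of the thymus. Of the 9 genes, 7 were bright enough to be tested, that is, had a probe that read clearly over background for the sample on 2 or more of the 9 arrays, with 11 of the 16 probes. Cd79a and Rag2 were not.

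The arrays measured RNA from newborn mice (postnatal day 0) of the strain C57BL/6J, in wild type (n = 4), p63-/- (n = 3) and p63-/-;Cdx2 (n = 2) animals. p63, the product of Trp63, is a transcription factor of stratified epithelia. Which part of Trp63 was deleted is not given in the sources used here, and all animals that carry Cdx2 also lack p63. The Cdx2 transgene is named for the promoter of villin, a gene of the gut epithelium. Cdx2 itself regulates intestinal genes. The labels number the p63-/-;Cdx2 samples out of 3, and 2 are analysed here. They call the samples biological replicates and do not say whether animals were pooled. Each sample was labelled with the red dye Cy5 and hybridised with a common reference, RNA of 11 mouse cell lines in the green dye Cy3, so a log2 ratio is the sample over that reference.

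Before a B or T lymphocyte has a complete antigen receptor, it makes a provisional one. In B-cell precursors the proteins of Igll1 and Vpreb1 together form the surrogate light chain, which pairs with a newly made heavy chain. Vpreb3 is a related chaperone of that receptor, and Cd79a is one of its signalling chains. In thymocytes the partner of the new T-cell receptor beta chain is the invariant pre-T alpha chain, the product of Ptcra. Rag1 and Rag2 cut DNA to join receptor gene segments in both lineages, and Dntt, terminal transferase, adds untemplated bases at the joints. Prss16 is a serine protease of the epithelium of the thymic cortex. The thymus forms from the pharyngeal pouches and lies near the upper esophagus in the newborn.

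The probes below are shown so that it can be seen which stretch of each gene was measured. They are taken to lie in the protein-coding part of their messages from background knowledge of these genes and not from a check against protein sequence. Each keeps at least 1 open reading frame over its 60 bases, in the sense direction, as some of the probes not shown also do, and no letter is singled out. The brightest probes of Vpreb3, Rag1 and Dntt, which carry the values of these genes, lie further toward the end of the message and are given by position only. The printed Cd79a and Dntt probes did not enter the fits. Coordinates are mm9, per the file headers. The Igll1 probe, which carries all Igll1 values that follow, lies at chr16:16861104-16861163 on the minus strand. The Vpreb3 probe, the dimmer of 2, lies at chr10:75412043-75412102 (plus), the Rag1 probe at chr2:101484677-101484736 (minus). The Cd79a probe (chr7:25684353-25684610, plus) and the Dntt probe (chr19:41115786-41117355, plus) map to spans longer than 60 bases, that is, across an intron.
Igll1: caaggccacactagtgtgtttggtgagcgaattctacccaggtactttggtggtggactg
Vpreb3: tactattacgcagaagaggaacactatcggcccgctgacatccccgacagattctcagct
Cd79a: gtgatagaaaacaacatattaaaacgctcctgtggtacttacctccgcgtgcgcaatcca
Rag1: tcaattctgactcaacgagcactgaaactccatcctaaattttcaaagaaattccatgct
Dntt: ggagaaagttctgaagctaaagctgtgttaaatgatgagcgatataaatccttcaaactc

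Igll1 and Vpreb1 are neighbours on chromosome 16, with 7.40 kb between their probes (the Vpreb1 probe lies at chr16:16868559-16868618, minus strand) and 0 other genes measured between them. Both were higher in all 3 p63-/- arrays than in all 4 wild type arrays, as the next paragraphs show, so the 250 bases before their transcription starts are printed for comparison. These are RefSeq sequences of GRCm38.p6, a different build from the mm9 of the probes, at chr16:16863986-16864235 for Igll1 and chr16:16869256-16869505 for Vpreb1, both on the minus strand. Capitals mark CCCNNGGG, the core recognised by the B-lineage factor Ebf1, and the E-box CANNTG. Both motifs read the same on either strand.
Igll1 upstream: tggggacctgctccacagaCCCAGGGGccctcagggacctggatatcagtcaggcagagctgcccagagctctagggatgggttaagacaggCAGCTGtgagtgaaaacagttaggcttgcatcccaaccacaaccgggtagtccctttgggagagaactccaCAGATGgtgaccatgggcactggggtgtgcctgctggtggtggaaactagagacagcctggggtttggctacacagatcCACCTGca
Vpreb1 upstream: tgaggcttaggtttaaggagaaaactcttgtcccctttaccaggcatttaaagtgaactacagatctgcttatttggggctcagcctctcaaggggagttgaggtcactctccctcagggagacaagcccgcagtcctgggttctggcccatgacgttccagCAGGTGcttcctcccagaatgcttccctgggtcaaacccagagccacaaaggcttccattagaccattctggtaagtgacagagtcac
The Igll1 window held 1 CCCNNGGG and 3 E-boxes, with 0 overlaps, and the Vpreb1 window held 0 and 1. Of 32851 such windows in the RefSeq table, 11.8% held CCCNNGGG and 66.2% held an E-box. The table had a window for 8 of the 9 genes. CCCNNGGG was in 2 of them, Igll1 and Ptcra, and an E-box in 8. A match of letters is a description and not a binding site.

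The sample dye gave 30018 to 33228 probes over background on an array, and its median intensity ranged from 309 to 472 across arrays. No slide or scan held arrays of more than 1 genotype, so the effect of a slide cannot be told apart from that of a genotype. Wild type replicate 4 is named as p63-/- in its source label, while its title, description and genotype say wild type. The p63-/- minus wild type differences without it are given once, after the genes. As the check of the genotype, the brightest Trp63 probe was lower in all p63-/- arrays than in wild type, by a log2 ratio difference of -0.97 (SE 0.17, limma, adjusted p = 0.0747). The Cy5 signal on its own differed by -1.19 (limma, adjusted p = 0.0101). Another Trp63 probe went the other way. Its ratio difference was 0.37 with overlap, its Cy5 signal was higher in all p63-/- arrays by 0.39, and it rose in p63-/-;Cdx2 against wild type by 0.90 (limma over probes, adjusted p = 0.0462). The third differed by 0.02. The Cdx2 probe stayed near background on all 9 arrays. The labels give the cell type as epithelium, but the RNA came from esophageal tissue. All 5 muscle genes listed as markers of the esophageal wall were well above background on all 9 arrays, and so were all 6 airway genes listed. In tissue RNA, fewer cells of a type and less RNA per cell cannot be told apart.

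Igll1 was low on every array. Its sample intensity, as scanned and without subtraction of the local background, was 98.6, 57.5, 108 and 92.4 in wild type replicates 1 to 4. It was 214, 299 and 272 in p63-/-, and 123 and 170 in p63-/-;Cdx2. The spot was well above background on 8 of the 9 arrays, all but wild type replicate 2. The 3 genotypes did not overlap, with p63-/-;Cdx2 between the other 2.

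After loess normalization the log2 ratio of Igll1 was 0.30, 0.06, 0.14 and 0.46 in wild type, 0.98, 1.12 and 0.98 in p63-/-, and 0.60 and 0.55 in p63-/-;Cdx2. The mean was 0.24 ± 0.18 (SD, n = 4), 1.03 ± 0.08 (SD, n = 3) and 0.57 ± 0.03 (SD, n = 2) in these genotypes. The p63-/- mean exceeded wild type by 0.79 (SE 0.10), and by 1.03 in the sample channel alone, a fold of 2.04. The p63-/-;Cdx2 mean was below p63-/- by 0.45 (SE 0.12) and above wild type by 0.33 (SE 0.12). These 3 differences share arrays, and Igll1 was chosen for the first of them. The second Igll1 probe never rose clear of background and gives no value.

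The Igll1 ratio rests on a dim reference. Its reference intensity was 33.5 to 55.1 over the 9 arrays and was well above background on 2 of them. In the scanner software's own processed ratios, Igll1 was 2.01, 0.00, 2.68 and 2.89 in wild type, 2.23, 2.14 and 2.25 in p63-/-, and 2.42 and 1.35 in p63-/-;Cdx2. There the p63-/- values lay inside the wild type range, and the p63-/- minus wild type difference was 0.31 in place of 0.79. In the authors' deposited value table it was 0.27. The order of the genotypes for Igll1 is therefore a reading of the sample channel and of the ratio after offset and loess, and not of the scanner's ratio.

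**Figure D1:**
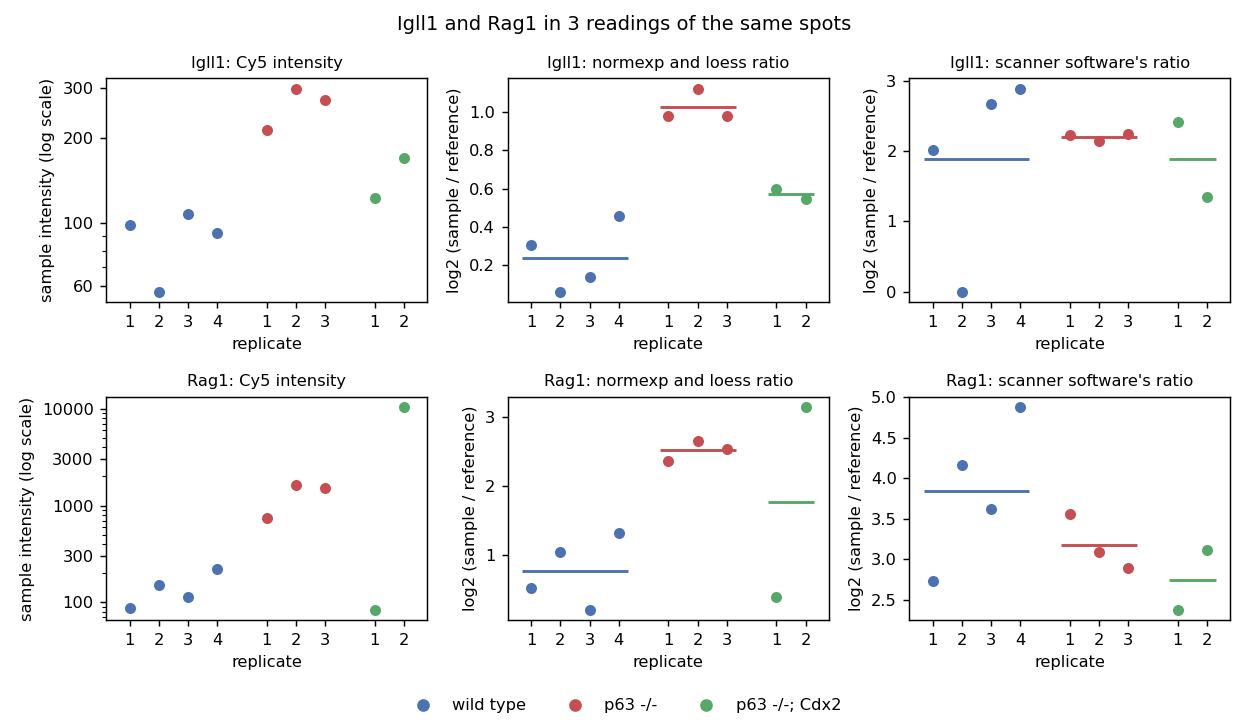
Igll1 (top) and Rag1 (bottom) on each of the 9 arrays, by genotype and replicate, as the Cy5 intensity on a log axis, as the log2 ratio after background correction and loess, and as the scanner software's log2 ratio. Points are arrays, and horizontal bars in the 2 ratio columns are genotype means. The p63-/- arrays are above wild type in the first 2 columns, at 214 to 299 intensity units for Igll1, and overlap wild type for both genes in the third.

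Vpreb1, the partner of Igll1 in the surrogate light chain, was much brighter and was likewise higher in p63-/- than in wild type. Its sample intensity was 988, 729, 1773 and 1444 in wild type, 3269, 4986 and 3752 in p63-/-, and 2018 and 3462 in p63-/-;Cdx2. The spot was well above background in both channels on all 9 arrays. All p63-/- arrays were above all wild type arrays, while the p63-/-;Cdx2 arrays overlapped p63-/-.

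The log2 ratio of Vpreb1 was 1.26, 0.89, 1.6 and 1.54 in wild type, 2.60, 2.82 and 2.61 in p63-/-, and 1.82 and 2.58 in p63-/-;Cdx2. The p63-/- minus wild type difference was 1.36 (SE 0.22), a fold of 2.56, and did not pass at 0.05 (limma, adjusted p = 0.0597). In the sample channel it was 1.38 (SE 0.30, limma, adjusted p = 0.0707). It passed in a fit of these 2 genotypes alone (limma, adjusted p = 0.0262), with array weights (adjusted p = 0.0115) and without wild type replicate 3 (adjusted p = 0.0490), and did not pass without wild type replicate 4 (adjusted p = 0.121). Its reference channel differed by 0.03, and the scanner's ratios gave 1.17 (limma, adjusted p = 0.185). For p63-/-;Cdx2 against wild type the difference was 0.88 (SE 0.25, limma, adjusted p = 0.121), and against p63-/- it was -0.48 (SE 0.26, adjusted p = 0.511).

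Vpreb3, which shares ancestry and a name with Vpreb1, did not separate p63-/- from wild type. Its log2 ratio was 0.78, 1.29, 1.26 and 1.80 in wild type, 1.45, 1.14 and 1.62 in p63-/-, and -0.40 and 0.93 in p63-/-;Cdx2. Wild type and p63-/- overlapped, with a difference of 0.12 (SE 0.33, limma, adjusted p = 0.945). The lowest value of Vpreb3 was in p63-/-;Cdx2 replicate 1, at a sample intensity of 411 against 932 to 3402 on the other 8 arrays. Against p63-/-, p63-/-;Cdx2 differed by -1.14 (SE 0.40, limma, adjusted p = 0.379). The second Vpreb3 probe, printed above, gave -0.61 for the same comparison.

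Cd79a was not well above background on 8 of the 9 arrays, with a sample intensity of 59.7 to 80.5. The exception was p63-/-;Cdx2 replicate 2, at 80.0. Whether Cd79a differed could not be detected at this signal.

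Rag1, the catalytic subunit of the recombinase, varied far more. Its brightest probe (chr2:101478813-101478872) had a sample intensity of 86.6, 152, 113 and 221 in wild type, 742, 1626 and 1514 in p63-/-, and 83.0 and 10380 in p63-/-;Cdx2. All 3 p63-/- arrays lay above all wild type arrays. The highest and the lowest value of all 9 were the p63-/-;Cdx2 replicates, 78.7-fold apart in the normalized sample channel.

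The log2 ratio of Rag1 was 0.52, 1.04, 0.19 and 1.31 in wild type, 2.36, 2.66 and 2.54 in p63-/-, and 0.39 and 3.14 in p63-/-;Cdx2. The p63-/- minus wild type difference was 1.76 (SE 0.57, limma, adjusted p = 0.461), and 2.57 in the sample channel (SE 1.23, adjusted p = 0.365). These errors take in the spread between the p63-/-;Cdx2 replicates. In a fit of wild type and p63-/- alone the same difference of 1.76 passed (limma, adjusted p = 0.0471). With the scanner's ratios it turned to -0.67 (adjusted p = 0.817). There the wild type arrays read 2.73 to 4.88, over a reference intensity of 33.2 to 36.7. The Rag1 reference was well above background on 4 of the 9 arrays. The other 2 Rag1 probes gave 1.25 and 0.81 as p63-/- minus wild type, with all p63-/- arrays above wild type for each.

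Rag2, the other subunit, was not well above background on 8 of the 9 arrays, at 49.4 to 67.5. It was so on p63-/-;Cdx2 replicate 2, at 77.5, the array with the highest Rag1. Dntt had log2 ratios of -2.25, -2.37, -1.23 and -2.16 in wild type, -1.45, -1.57 and -1.92 in p63-/-, and -2.23 and 0.24 in p63-/-;Cdx2. Its sample intensity was 141 to 178 in wild type, 287 to 432 in p63-/-, and 194 and 1134 in p63-/-;Cdx2. The p63-/- minus wild type difference was 0.36 (SE 0.53, limma, adjusted p = 0.889). As ratios and in the normalized sample channel p63-/- and wild type overlapped, through wild type replicate 3. As scanned, that array read 142.5 for the sample and 493.3 for the reference, against 142.4 and 492.7 on wild type replicate 1. The gap between these 2 arrays thus came with background correction and normalization. For Prss16, the same array had the lowest scanned intensity of wild type, 124, and the highest ratio, -0.87.

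Ptcra, the thymocyte partner of the beta chain, was well above background on 1 of 4 wild type arrays, on all p63-/- arrays and on both p63-/-;Cdx2 arrays. Its log2 ratio was 0.16, 0.17, 0.03 and 0.09 in wild type, 0.26, 0.91 and 0.73 in p63-/-, and 0.13 and 2.56 in p63-/-;Cdx2. The p63-/- minus wild type difference was 0.52 (SE 0.48, limma, adjusted p = 0.822). Without p63-/-;Cdx2 replicate 1, the remaining p63-/-;Cdx2 array stood above wild type by 2.45 and above p63-/- by 1.93. It is a lone array, already seen to be the highest, so no test is given for it.

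Prss16 had the widest range. Its sample intensity was 159, 153, 124 and 211 in wild type, and 328, 4997 and 2742 in p63-/-. In p63-/-;Cdx2 it was 222 and 16547. Its probe (chr13:22094369-22094428) was well above background in both channels on all 9 arrays. Replicates of 1 genotype thus differed more than the genotype means did.

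The log2 ratio of Prss16 was -1.48, -1.63, -0.87 and -1.33 in wild type, -0.52, 2.30 and 1.79 in p63-/-, and -1.22 and 2.96 in p63-/-;Cdx2. The p63-/- minus wild type difference was 2.52 (SE 0.98, limma, adjusted p = 0.576), a fold of 5.73, and ranged from 1.96 to 3.37 when 1 array was left out. Against wild type, p63-/-;Cdx2 differed by 2.19 (SE 1.11, limma, adjusted p = 0.342). Without its replicate 2 that difference was 0.11, and without its replicate 1 it was 4.28. The second Prss16 probe was well above background on p63-/-;Cdx2 replicate 2 and on no other array.

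**Figure D2:**
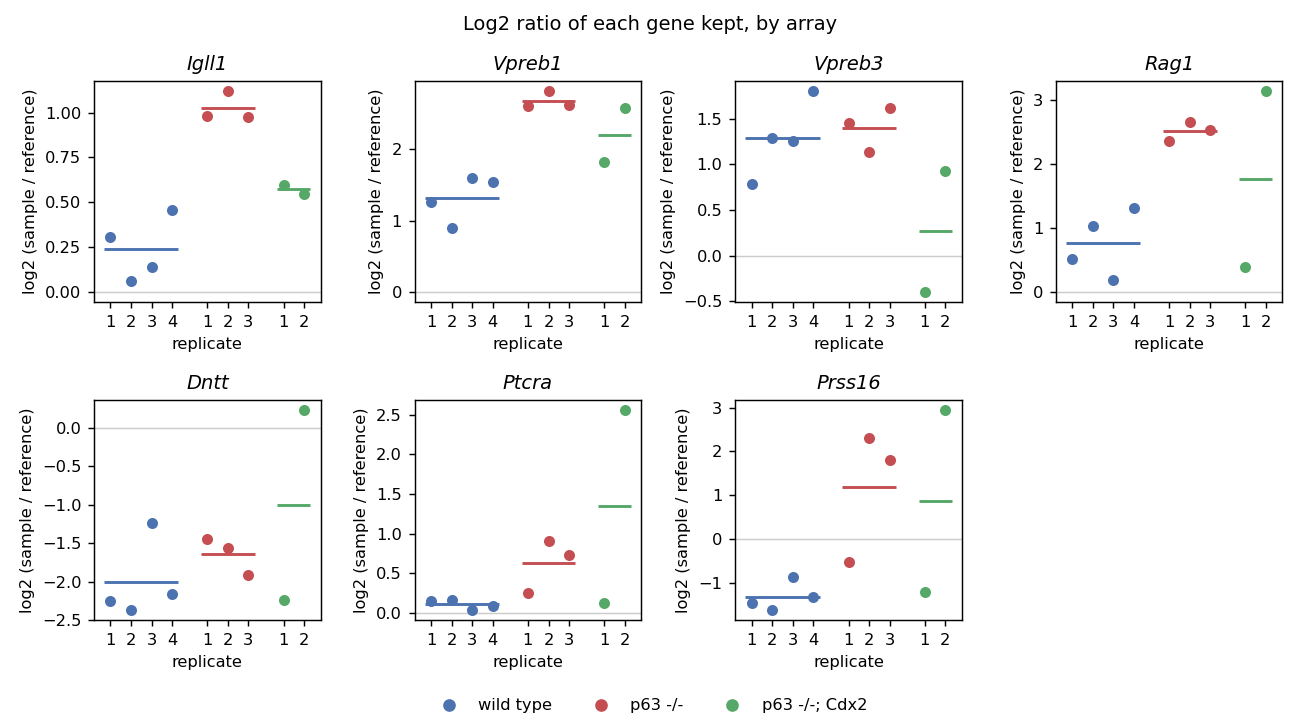
Log2 ratio of sample over reference on each array for the 7 genes that entered the fits, at the brightest probe of each. Points are arrays in their genotype, numbered by replicate, and bars are genotype means. Igll1 and Vpreb1 show 3 p63-/- arrays close together and above wild type, while Rag1, Dntt, Ptcra and Prss16 are highest in p63-/-;Cdx2 replicate 2 and far lower in its replicate 1.

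Of the 6 genes other than Igll1, 0 passed for p63-/- against wild type as a log2 ratio, against 0.327% of all genes in either direction. For the other comparisons 0 of 6 passed, against 0% of all genes for p63-/-;Cdx2 against p63-/- and 1.41% for p63-/-;Cdx2 against wild type. In the former, limma passed 0 of 22643 genes, although 2587 had an unadjusted p under 0.05 and 51 passed in the sample channel alone. In the sample channel the count of the 6 was again 0 in each comparison, against 1.74%, 0.225% and 2.42% of all genes. At an unadjusted p under 0.05 in limma the ratio counts of the 6 were 3 (Vpreb1, Rag1 and Prss16), 1 (Vpreb3) and 2 (Vpreb1 and Vpreb3) in these comparisons. Among all genes, 1763 of 22644, 2587 of 22643 and 4088 of 22646 were under it. In the fit of p63-/- and wild type alone, Vpreb1 and Rag1 passed, against 0.508% of all genes. Without wild type replicate 4 the p63-/- minus wild type difference was 0.86 for Igll1, 1.43 for Vpreb1, 0.29 for Vpreb3, 1.94 for Rag1, 0.31 for Dntt, 0.51 for Ptcra and 2.52 for Prss16, and 0 of the 6 passed.

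The sample signal of Vpreb1, Vpreb3, Rag1, Dntt and Prss16 was clear of background on all 9 arrays, so no genotype decided that they were tested. Ptcra was tested through the genotypes in which it was bright, and is not counted here, nor is Igll1. For 3 of these 5 genes, Vpreb1, Rag1 and Prss16, all p63-/- arrays were above all wild type arrays, against 5.93% of all genes, and the same 3 in the sample channel, against 9.15%. For p63-/-;Cdx2 minus wild type the groups did not overlap in the higher direction for 1 of the 5 as a ratio, Vpreb1, against 13.9%, and for 1 in the sample channel, Prss16, against 17%. They did not overlap in the lower direction for p63-/-;Cdx2 minus p63-/- for 2, Vpreb1 and Vpreb3, against 18%, and in the sample channel for 1, Vpreb3, against 16.3%. These genes were chosen with results of these arrays known, so the counts are a description.

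The 7 genes differed in which arrays were highest. In the sample channel, relative to the wild type mean on the log2 scale, p63-/-;Cdx2 replicate 2 stood at 6.16 for Prss16, 5.71 for Rag1, 3.36 for Ptcra and 2.39 for Dntt, the highest array for each of these 4. It stood at 0.63 for Igll1 and 1.33 for Vpreb1, below the highest p63-/- array for both. From p63-/-;Cdx2 replicate 1 to replicate 2 the sample channel differed 63.6-fold for Prss16, 9.57-fold for Ptcra and 5.03-fold for Dntt. It differed 1.21-fold for Igll1, 1.68-fold for Vpreb1 and 3.34-fold for Vpreb3, so the genes of the surrogate light chain and its chaperone were not alike. Within p63-/-, Prss16 stood at 0.59 in replicate 1 against 4.22 and 3.42 in replicates 2 and 3, whereas Igll1 stood at 0.88, 1.14 and 1.07.

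**Figure D3:**
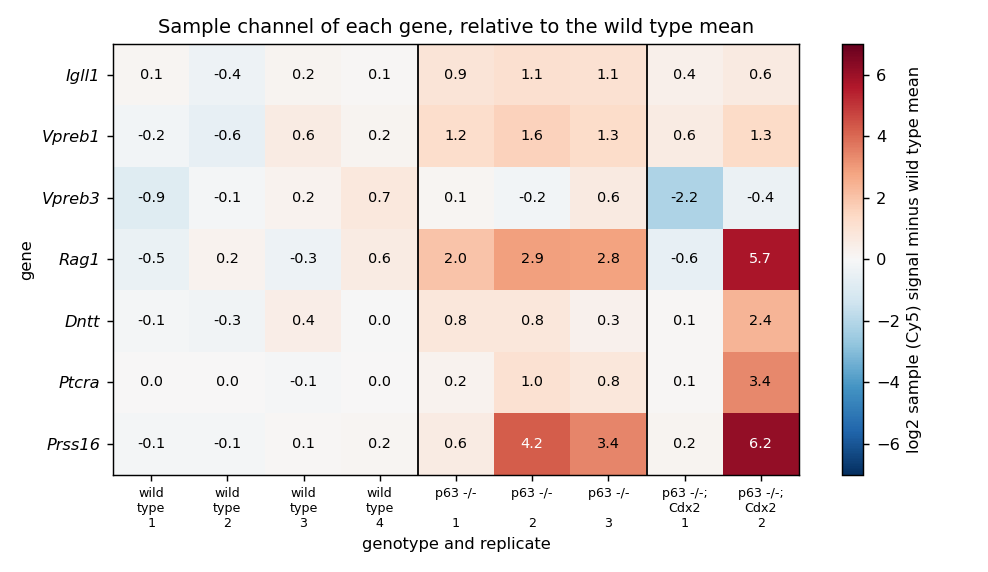
Normalized log2 sample (Cy5) signal of 7 genes on the 9 arrays, minus the wild type mean of each gene, with the value printed in each cell. Rag1, Dntt, Ptcra and Prss16 peak in p63-/-;Cdx2 replicate 2 (5.71 for Rag1 and 6.16 for Prss16), while Igll1 and Vpreb1 are raised by similar amounts in all 3 p63-/- arrays.

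Most markers of T cells and of the thymic epithelium shared with Prss16 and Rag1 the highest array, p63-/-;Cdx2 replicate 2, but not the whole order of arrays. Of 22 T-cell and thymocyte genes kept, 20 had their highest sample signal in p63-/-;Cdx2 replicate 2, as did 9 of 9 thymic epithelium genes, against 10.2% of all genes. The median over the T-cell list was 2.20 higher on the log2 scale in replicate 2 than in replicate 1, and that over the thymic epithelium list was 1.80 higher, against -0.03 over all genes. A gap between these replicates was not particular to them. The median of 6 airway genes was 2.04 higher in replicate 2, and that of 15 pan-leukocyte genes 1.20 higher. Of the latter, 9 were highest in replicate 2, and of the airway genes 0. The median sample signal of the airway list was 10.97 in p63-/-;Cdx2 replicate 1 and 13.54 in replicate 2, against 13.16 to 13.95 in wild type. Picked after their values were seen, the T-cell surface receptor Cd5 and the T-lineage factor Bcl11b had lower ratios in all p63-/- arrays than in wild type, by -0.58 (limma, adjusted p = 0.708) and -0.90 (adjusted p = 0.506). Both p-values are from the fit of all arrays, whose errors take in the spread between the p63-/-;Cdx2 replicates. The summed intensity over background of the thymic epithelium list was 7990 to 14851 in wild type, 16420 to 49654 in p63-/-, and 9611 and 171700 in p63-/-;Cdx2. For the T-cell list it was 10341 to 14229, 15889 to 23035, and 12967 and 112070. These sums are of scanned intensity, not normalized between arrays, and the median intensity of an array was 309 to 368 in wild type, 411 to 472 in p63-/- and 380 to 401 in p63-/-;Cdx2. Foxn1, the factor that specifies thymic epithelium, had log2 ratios of 0.04 to 0.18 in wild type, -0.10, 0.33 and 0.11 in p63-/-, and -0.09 and 1.25 in p63-/-;Cdx2. The part of thymic tissue in these values was not tested.

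As genotype comparisons these lists gave no calls in the fit of all arrays. Of the 22 T-cell genes 0 passed for p63-/- against wild type (median 0.35), and of the 9 thymic epithelium genes 0 passed (median 0.38). The lowest p had Satb1, a chromatin organiser of thymocytes, at 0.56 (SE 0.19, limma, adjusted p = 0.479), and Psmb11, the proteasome subunit of the thymic cortex, at 1.43 (SE 0.48, adjusted p = 0.471). As for Rag1, these errors take in the spread between the p63-/-;Cdx2 replicates. Vpreb1 and Rag1 passed in a fit of wild type and p63-/- alone. The lists were not put through that fit, so whether any of their genes would pass there is not given. Leaving out 1 p63-/-;Cdx2 replicate leaves that group a lone array, so only list medians are given for those fits. Without p63-/-;Cdx2 replicate 1, the medians for p63-/-;Cdx2 against wild type were 1.55 for the T-cell list and 1.24 for the thymic epithelium list. The array that remains is the one already seen to be highest for these lists. Without p63-/-;Cdx2 replicate 2 instead, the medians were -0.29 and -0.01. Some of these genes were well above background on few arrays, such as Cd2 on 4 and Foxn1 on 6 of 9.

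The listed markers of the B lineage gave no calls in the fit of all arrays either. Of 20 listed genes other than the 9 chosen, 18 were kept and 0 passed in any of the 3 comparisons, as ratios or in the sample channel. The list median was 0.08 for p63-/- minus wild type, -0.16 for p63-/-;Cdx2 minus p63-/- and -0.05 for p63-/-;Cdx2 minus wild type. Summed over the list, intensity over background was 15211 to 18212 in wild type, 20860 to 25319 in p63-/-, and 15276 and 23124 in p63-/-;Cdx2, with the same difference in overall brightness. The normalized list medians overlapped, at 7.42 to 7.75 in wild type and 7.57 to 8.10 in p63-/-. Of the 18 genes, 4 were highest in p63-/-;Cdx2 replicate 2, against 10.2% of all genes. Picked after its values were seen, Vpreb2, a near copy of Vpreb1 that also serves in the surrogate light chain, differed by 0.08 (SE 0.08, limma, adjusted p = 0.831). Cross-hybridisation between the copies was not tested. Ighm, the mu heavy chain that the surrogate light chain pairs with, picked in the same way, differed by 0.45 (SE 0.32, limma, adjusted p = 0.783). Between the p63-/-;Cdx2 replicates Ighm differed 4.4-fold in the sample channel, Spib 5.04-fold and the cytokine receptor Il7r, which T-cell precursors also use, 5.97-fold, each higher in replicate 2.

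Granulocyte precursor markers included genes with the genotype order of Igll1. The median of the 15 granulocyte precursor genes kept was 0.72 for p63-/- minus wild type, with Ltf (-0.09) and S100a9 (-0.15) lower in p63-/-. Of the 15, 2 rose in that comparison, against 0.327% of all genes passing in either direction. They were Ctsg (1.74, SE 0.17, limma, adjusted p = 0.00758) and Ms4a3 (1.77, SE 0.21, adjusted p = 0.0137). As ratios, both were lowest in wild type, highest in p63-/- and between in p63-/-;Cdx2, without overlap. In the sample channel neither passed (limma, adjusted p = 0.0618 for Ctsg and 0.0664 for Ms4a3). Prtn3 did pass there (0.58, limma, adjusted p = 0.0317), against 1.74% of all genes. For p63-/-;Cdx2 against wild type 3 rose as ratios, Ctsg, Ms4a3 and Prtn3, against 1.41% of all genes in either direction. Leaving out 1 wild type or p63-/- array took this to between 0 and 2. It was 0 without wild type replicate 2 or 4 or p63-/- replicate 2 or 3. For p63-/- against wild type Ctsg passed in all 9 fits that left out 1 array. Ms4a3 did not pass without wild type replicate 2 or without any 1 of the p63-/- arrays. The median sample signal of this list was highest in p63-/- replicate 1, at 11.26, against 9.46 and 9.39 in replicates 2 and 3, where Igll1 was highest in replicate 2. Of 13 erythroid genes, 12 were highest in p63-/-;Cdx2 replicate 1, against 4907 of 22605 among all genes, and 0 passed in any comparison. Of 14 genes of haematopoietic progenitors 13 were kept, and 0 passed. Their part in the level of Igll1 was not tested.

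**Figure D4:**
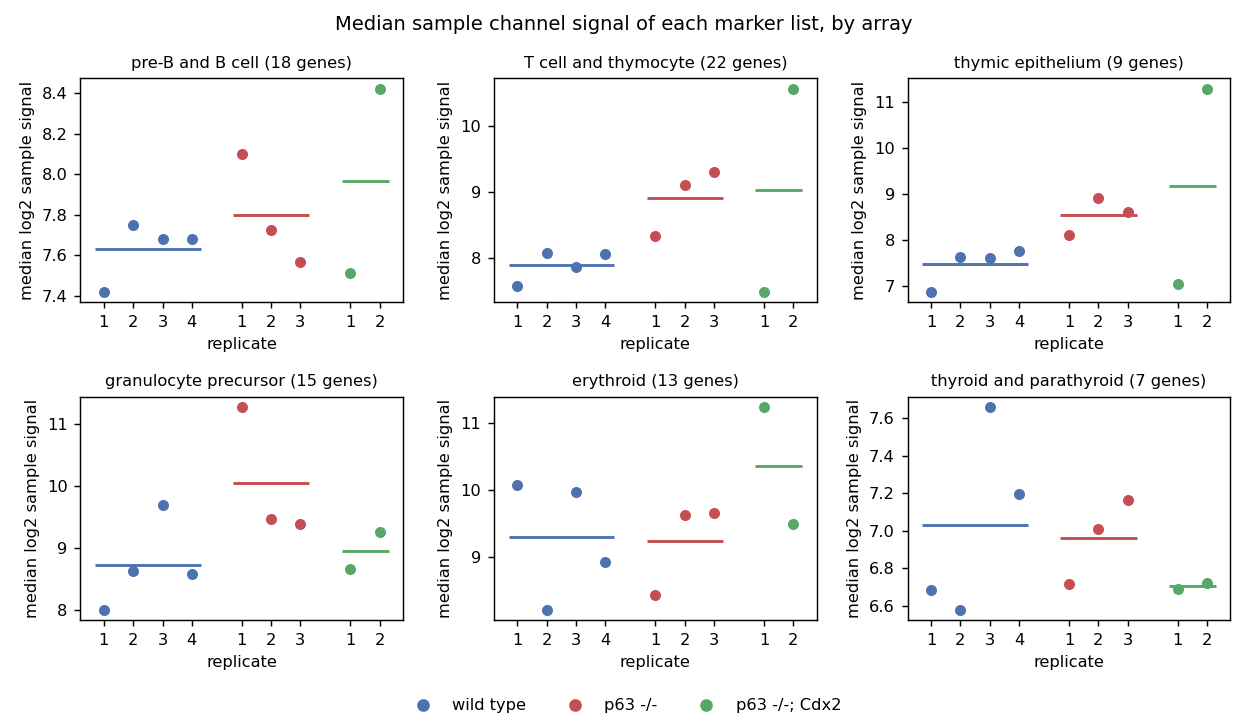
Median normalized log2 sample signal of 6 marker lists on each array, by genotype and replicate, with bars at the genotype means. The T-cell (10.57), thymic epithelium (11.28) and B-cell (8.42) lists peak in p63-/-;Cdx2 replicate 2, the granulocyte precursor list in p63-/- replicate 1 (11.26), the erythroid list in p63-/-;Cdx2 replicate 1, and the thyroid and parathyroid list in wild type replicate 3.

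Tissues next to the esophagus differed among arrays in further ways. The thyroid and parathyroid list had a summed intensity over background of 673, 76625, 259300 and 221610 in wild type, 11181, 159730 and 148080 in p63-/-, and 517 and 8698 in p63-/-;Cdx2. Of its 7 genes kept, 0 passed in any comparison. Its highest array, wild type replicate 3, and its lowest, p63-/-;Cdx2 replicate 1, were both among the 3 lowest for Rag1. The listed squamous genes of the esophagus went by genotype. Of these 7, 5 passed as lower ratios in p63-/- than in wild type (limma, adjusted p under 0.05), with a list median of -2.22. Among all genes 0.327% passed in either direction.

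The array profile of Igll1 was set against all genes as a description, by Pearson's r of the log2 ratio over the 9 arrays, which fall into 3 genotype levels and share slides. The 5 named genes most like it were Abcc5, a transporter also on chromosome 16 (r = 0.970), the kinase Map3k15 (0.941), the platelet receptor Clec1b (0.936), Tmem241 (0.933) and the cytochrome Cyp2c39 (0.924). Vpreb1 came at rank 19 of the 22604 other genes (r = 0.896). The value was 0.711 for Rag1, 0.618 for Prss16, 0.269 for Ptcra, 0.146 for Dntt and 0.092 for Vpreb3. After the genotype means were taken out, r with Igll1 was 0.351 for Vpreb1, 0.093 for Rag1 and 0.041 for Prss16.

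Igll1 and Vpreb1 lie on the same chromosome as Trp63, each 9.0 Mb before the first Trp63 probe. Within 10 Mb of the Trp63 probes 241 genes other than Igll1 were kept. As a log2 ratio, 1 of them passed for p63-/- against wild type, or 0.415% against 0.327% of all genes. This was Tprg, the neighbour of Trp63, which fell by 2.75. In the sample channel, with Igll1 counted, 4 of 242 genes passed as higher and 3 as lower, or 2.89% against 1.74% of all genes. Abcc5, the named gene most like Igll1, also lies in this region, at chr16:20331568-20331627. Tnk2 was the one further gene there to pass as a ratio for p63-/-;Cdx2 against wild type (-0.56, limma, adjusted p = 0.0475). Of the 10 nearest genes kept around Igll1 and Vpreb1, 5 on each side, 0 passed, with differences from -0.04 to 0.45. For 1 of the 10, Ypel1, all p63-/- arrays were above wild type (0.28, limma, adjusted p = 0.595).

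The reference channel, which held the same RNA on every array, was not constant for the brightest of these genes. For Rag1 its intensity was 33.0 to 100 on 8 arrays and 606 on p63-/-;Cdx2 replicate 2, where the sample channel read 10380. From the lowest to the highest sample array, the reference rise was 5.56% of the sample rise for Rag1, 4.95% for Prss16 and 4.31% for Ptcra. For Vpreb1 it was 1.88%, for Dntt -0.06%, and for Igll1 6.26% over a reference that stayed near background. It was largest for Vpreb3, at 7.47%, over a reference intensity of 300 to 561. Log2 ratios of Rag1, Prss16, Ptcra and Vpreb3 thus span less than their sample channels do. The cause of this parallel signal was not tested.

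**Figure D5:**
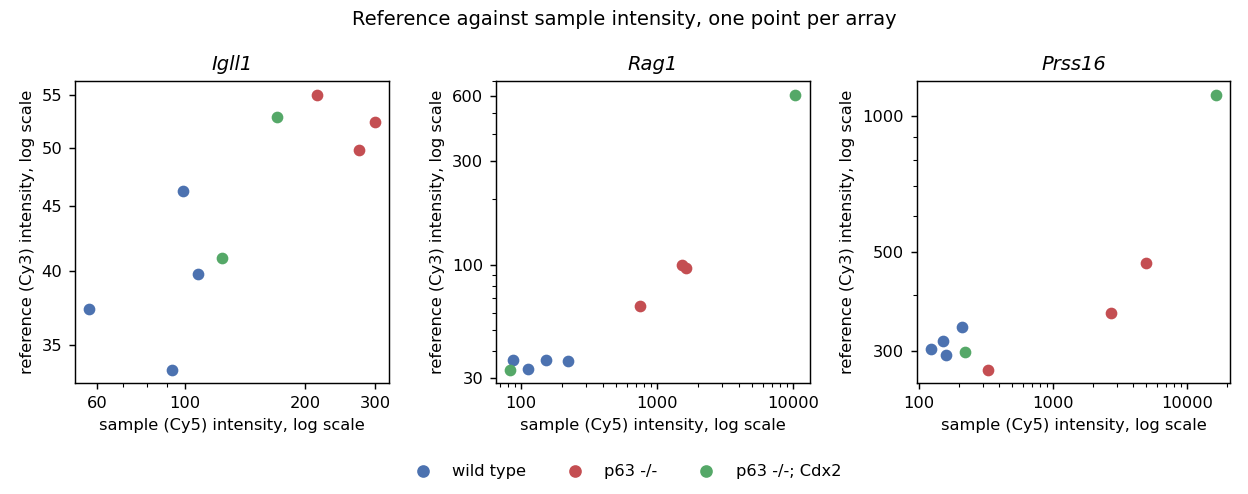
Reference (Cy3) against sample (Cy5) intensity of Igll1, Rag1 and Prss16, as scanned, on log axes, with 1 point per array coloured by genotype. The reference reading of Rag1 and Prss16 is highest on p63-/-;Cdx2 replicate 2 (606 and 1116), the array with the highest sample reading.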

How the data were processed

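RNA from 9 samples was hybridised on 2-colour Agilent arrays against 1 reference. The deposited intensity values, the log10 ratios of red over green and their processed signals came from Agilent Feature Extraction, version 9.1 per the submitters' processing notes and 10.7.3.1 per the file headers, and coordinates are mm9, per the file headers. The authors' deposited value table holds log2 ratios that matched the scanner's ratios (lowest r over arrays 0.992), with array medians from -0.21 to -0.03. Its further processing is not given in the sources used here.

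Intensities were corrected with normexp (offset 50) and loess within arrays in limma 3.58.1 (R 4.3.3), control and outlier spots having weight 0. Both channels were also set on 1 scale with Aquantile. Spots of a probe were averaged, probes well above background on at least 2 arrays were kept (33749 of 41174), and a gene was read by its brightest probe (22647 genes). All 9 arrays entered 1 linear model with eBayes, and p-values were adjusted by Benjamini-Hochberg over all genes, at 0.05. The model was tested on simulated data. The number of arrays limits the precision.

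The 9 genes, the marker lists, the rule for named genes and the alternatives were chosen with earlier results of these data known. That rule names the 9 genes, up to 2 passing genes per list and direction or else the one with the lowest p, the 5 genes most like Igll1, passing genes near Trp63, and Trp63 and Cdx2. Symbols were updated through RefSeq (GRCm38.p6). A result for 1 gene of the B-lineage list is not reported here.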

Additional observations from a re-analysis of the deposited data

Results flagged for a closer look

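In the sample channel, wild type replicate 2 stood apart from the other wild type arrays for Igll1, with a gap to the nearest of 0.863 of the group's whole range, above Dixon's 95% critical value for 4 samples. It was the lowest of the 4, at a log2 signal of 6.34 against 6.82 to 6.89, and the one array on which the Igll1 spot was not well above background. Of 14 such comparisons made for the 7 genes, 1 was past that value, and chance passes about 1 in 20 groups. Igll1 was chosen by its values on these same arrays, so this flag is a description and not a test. Without this array the p63-/- minus wild type difference of Igll1 was 0.73 in place of 0.79.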

How the results depend on the processing

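Over 22 alternatives, the p63-/- minus wild type differences of the 7 genes gave 154 values, of which 137 kept direction and side of the threshold, 8 newly passed, 5 moved beyond the spread and 4 turned sign. For p63-/-;Cdx2 minus p63-/- the counts were 147, 1, 0 and 6, and for p63-/-;Cdx2 minus wild type 144, 2, 2 and 6. Where no reason is named, the cause was not tested. With the scanner's processed signals and with the authors' deposited table, Rag1 turned to -0.67 (p63-/- minus wild type) and -1.11 (p63-/-;Cdx2 minus wild type), and Igll1 in the latter comparison to -0.0089 and -0.051. Scaling between arrays turned Vpreb3 to -0.21 (p63-/- minus wild type), and the sample channel alone turned Prss16 to 0.42 (p63-/-;Cdx2 minus p63-/-). The Igll1 excess of p63-/- over wild type was 1.06 with offset 16 and 1.01 with median centring. Of the 6 genes other than Igll1, 0 passed in each comparison, 1 passed with array weights (Vpreb1) and 2 in the fit of the 2 genotypes alone (Vpreb1 and Rag1), both for p63-/- minus wild type. Leaving out 1 wild type or p63-/- array gave 0 to 1 passing genes for p63-/- minus wild type (Vpreb1, without wild type replicate 3) and 0 for the other comparisons. Fits without 1 p63-/-;Cdx2 array leave that group a lone array, and their passes are counted above but not named. Leaving out 1 array moved Vpreb3 from -0.049 to 0.29 (p63-/- minus wild type). For p63-/-;Cdx2 minus p63-/- it moved Rag1 from -2.13 to 0.62, Dntt from -0.59 to 1.88, Ptcra from -0.50 to 1.93 and Prss16 from -2.41 to 1.76. For p63-/-;Cdx2 minus wild type it moved Rag1 from -0.38 to 2.38 and Dntt from -0.23 to 2.25, in each case with the ends set by the p63-/-;Cdx2 replicates. Marker lists without each array were counted as an alternative chosen after seeing the data. Same-numbered arrays of different genotypes correlated at -0.13 to 0.19 in their deviations and other pairs at -0.20 to 0.19. Of the 9 arrays, 4 correlated best with their own number. This cannot decide whether samples were paired, since the deviations of the 2 p63-/-;Cdx2 arrays mirror each other. With the replicate block 0 of the 6 genes passed in each comparison, and over all genes 9 passed in place of 74 for p63-/- minus wild type, 0 for p63-/-;Cdx2 minus p63-/-, and 8 in place of 319 for p63-/-;Cdx2 minus wild type. Over all 22 alternatives the number of all genes passing ran from 9 to 393 for p63-/- minus wild type, from 0 to 51 for p63-/-;Cdx2 minus p63-/-, and from 8 to 548 for p63-/-;Cdx2 minus wild type, with the sample channel alone highest in each. The reference was well above background on 2 of the 9 arrays for Igll1 and on 4 for Rag1 and Ptcra, which limits their ratios.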
